A study of Rattus norvegicus with 54 samples.

Results

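Proteasome subunit genes were described over all 18 groups of a rat diet study. The genes were taken by name: every probe with a single gene symbol beginning Psma, Psmb, Psmc, Psmd or Psme and a number. This gave 45 probes for 43 genes, out of 19802 named entries tested, and the brightest probe over all arrays stood for a gene with several. Of the 43 genes, 42 belong to the proteasome and its regulators. The other, Psmc3ip, shares the name but acts in meiotic recombination, and it is kept in the member counts.

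Male Sprague-Dawley rats ate chow, a high-fructose diet (HFrD, written HF in the labels) or the high-fructose diet with nordihydroguaiaretic acid (HFrD-NDGA), a lignan of the creosote bush. The sources differ on the treatment, with 2.4 g NDGA per kg diet for 8 weeks in the series text and 2.5 g and 16 weeks in the treatment protocol. Each diet gave liver, epididymal white adipose tissue and gastrocnemius muscle, and each tissue and diet also had a group labelled INS, a term the labels do not explain. Each of the 18 groups was 1 pool of RNA hybridised to 3 repeat 1-colour arrays, so 54 arrays in all, and every SD, SE and p-value below measures the spread between arrays of a pool, not between rats. In bulk tissue, fewer cells of a type and less RNA per cell cannot be told apart.

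The proteasome degrades proteins that carry ubiquitin chains. Its barrel-shaped 20S core is built of α-subunit rings around β-subunit rings, and the β-subunits Psmb5, Psmb6 and Psmb7 hold the cutting sites. The 19S cap has a base of ATPases (Psmc genes), which unfold the substrate, and non-ATPase subunits (most Psmd genes), which bind and trim ubiquitin. In cells exposed to interferon-γ the catalytic subunits are replaced by Psmb8, Psmb9 and Psmb10, which form the immunoproteasome and cut peptides for antigen presentation, and the PA28 cap of Psme1 and Psme2 can replace the 19S cap. In skeletal muscle the ubiquitin-proteasome pathway breaks down contractile protein during wasting, and the transcription factors Nfe2l1 and Nfe2l2 raise subunit genes when proteasome activity falls or cells meet electrophiles.

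By role, the members were 7 α-subunits, 7 constitutive β-subunits, 4 immunoproteasome and thymus β-subunits, 6 ATPases, 11 non-ATPases, 3 assembly chaperones named Psmd (Psmd5, Psmd9 and Psmd10) and 4 activators (Psme1 to Psme4), with Psmc3ip outside these roles. Psmb11, the β-subunit of thymic cortical epithelium, was detected on 0 of the 54 arrays by the deposited detection p, so its values are background. Single spots fell far below their repeats for Psmb5 on the third muscle chow array (deposited intensity 425) and on the first liver HFrD-NDGA array (670), and neither was detected.

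RefSeq promoters (GRCr8, 250 bases before to 50 after each start) were matched to 38 of the 43 genes and searched on both strands for 4 motifs. The interferon-stimulated response element core GAAANNGAAA was in 6 of the 38 (15.8%), against 3.77% of 27457 promoters of that length, and the antioxidant response element core TGACNNNGC in 8 (21.1%), against 12.2%. CCAAT was in 20 (52.6%, against 37.7%) and the GC box GGGCGG in 27 (71.1%, against 34.9%). Overlaps between the 4 motifs were not counted. The windows below are those of interferon-regulated genes (Psmb8, Psmb10 and Psme2) and constitutive catalytic subunits (Psmb6 and Psmb5) that hold a match. They were chosen for the match, not for their changes. Each runs 5′ to 3′ on the strand of the gene, and the capitals mark the match, first the GAAANNGAAA matches (in Psmb8 on the opposite strand).
Psmb8 (chr20:4657006-4657055, minus strand): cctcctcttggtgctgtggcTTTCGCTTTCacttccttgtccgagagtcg
Psmb10 (chr19:50743336-50743385, minus strand): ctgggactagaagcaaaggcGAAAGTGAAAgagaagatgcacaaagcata
Psmb10 (chr19:50743280-50743329, minus strand): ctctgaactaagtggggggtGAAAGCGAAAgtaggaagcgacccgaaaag
Psme2 (chr15:33052775-33052824, minus strand): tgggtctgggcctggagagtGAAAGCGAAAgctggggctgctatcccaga
The TGACNNNGC matches of 2 constitutive catalytic subunits are the next pair.
Psmb6 (chr10:55737844-55737893, plus strand): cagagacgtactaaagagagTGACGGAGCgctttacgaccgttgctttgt
Psmb5 (chr15:32047410-32047459, minus strand): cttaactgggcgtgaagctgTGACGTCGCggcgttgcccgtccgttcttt
The other GAAANNGAAA matches were in Psma4, Psmb3 and Psmd7, and the other TGACNNNGC matches in Psma3, Psmb2, Psmd1, Psmd3, Psmd9 and Psme4. Psmb9 had neither motif in its window. A match is a description of letters, and binding was not measured here.

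Arrays differed in brightness, so values were quantile normalised and are given as log2 intensity, and changes as log2 differences with the adjusted p of limma over all 19802 entries, called below 0.05. Each call was repeated with arrays centred on their own median and with no scaling, together called the 3 scalings below. Calls kept under all 3 scalings were counted for the members and the gene lists, not over all entries. Those counts therefore have no background share beside them. The defining markers of each tissue were present in it. In adipose tissue the HFrD arrays stood apart: 11 seminal vesicle and epididymis markers summed to 219200 to 228500 normalised intensity there, against 546.7 to 4095 on the arrays of the other 5 adipose groups. In muscle the HFrD arrays carried more macrophage marker signal, with a sum over 10 markers of 16810 to 17100, against 4202 to 7115 in the other 5 muscle groups. Hepatocyte markers, summed over 10 genes, also differed between the muscle groups, from 3672 to 28200, and fast skeletal muscle markers were far above the other adipose groups in adipose chow. Psmc3ip is among the members counted as higher in HFrD-NDGA against chow in liver and adipose tissue, HFrD-NDGA against HFrD in muscle and HFrD against chow in adipose tissue, and as lower in HFrD against chow and chow INS against chow in muscle, HFrD-NDGA INS against HFrD-NDGA in liver and all 3 comparisons of tissues.

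Muscle was the tissue with the highest level of most subunit probes, while the immunoproteasome probes were lowest there. Compared with muscle on chow, liver on chow had 31 of 43 members lower and 7 higher (37.4% of all entries were lower and 33% higher), and adipose tissue on chow had 33 lower and 6 higher (33.2% lower, 32.7% higher). Of these, 26 lower and 6 higher calls in liver, and 26 and 6 in adipose tissue, were made under all 3 scalings. The median member differed by -0.64 in liver and by -0.74 in adipose tissue.

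In liver against muscle, 7 of 7 α-subunits, 5 of 7 constitutive β-subunits, 5 of 6 ATPases and 10 of 11 non-ATPases were lower. In adipose tissue against muscle, the lower counts were 6 α-subunits, 5 constitutive β-subunits, 6 ATPases and 10 non-ATPases. Psme4, the PA200 activator that binds acetylated histones in testis and other cells, changed by -2.60 log2 units in liver (SE 0.087, adjusted p = 2.09e-26) and by -1.93 in adipose tissue (SE 0.087, adjusted p = 6.57e-22). Psmd12, a scaffold of the 19S lid, differed by -1.66 in liver and -1.59 in adipose tissue.

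Psmb8 was 13.5-fold higher in chow liver than in chow muscle (log2 change 3.75, SE 0.098, adjusted p = 5.74e-30) and 6.09-fold higher in chow adipose tissue (2.61). Psmb9 was 7.99-fold higher in liver and 6.34-fold higher in adipose tissue (adjusted p = 7.57e-28 and 7.06e-26), and Psmb10 was 1.80-fold and 2.60-fold higher. The interferon and antigen presentation list, 19 genes on the array, was higher against muscle for 19 genes in liver (median 1.39) and 17 in adipose tissue (median 1.90). Lymphocyte markers, 12 on the array, summed to 2919 to 3054 in chow liver and 1897 to 2036 in chow adipose tissue, against 940.4 to 1232 in chow muscle, and macrophage markers to 18570 to 20080 and 31750 to 33120, against 4561 to 4700. The part of these cells in the levels was not tested.

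Over all 18 groups, normalised together, the place of muscle in the tissue order was kept for some members whatever the diet. For 18 of the 43 members the 6 muscle group means all lay above the 12 means of liver and adipose tissue, and for 4 members (Psmb8, Psmb9, Psmb10 and Psme1) they all lay below. The same counts were not made over all entries, so whether 18 and 4 are many for this array is not known. Group means of Psmb8 ran 10.83 to 11.80 in liver, 10.08 to 11.43 in adipose tissue and 7.69 to 9.08 in muscle, so liver and adipose groups interleaved and muscle stood apart. Group means of Psmb6 ran 13.38 to 13.92 in liver, 13.77 to 14.01 in adipose tissue and 14.70 to 15.10 in muscle. Within a tissue, the range of group means of a median member was widest in the immunoproteasome class, at 0.70 (liver), 0.87 (muscle) and 1.28 (adipose tissue) with Psmb11 counted, against 0.32, 0.35 and 0.30 for the ATPases in the same order.

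**Figure D1:**
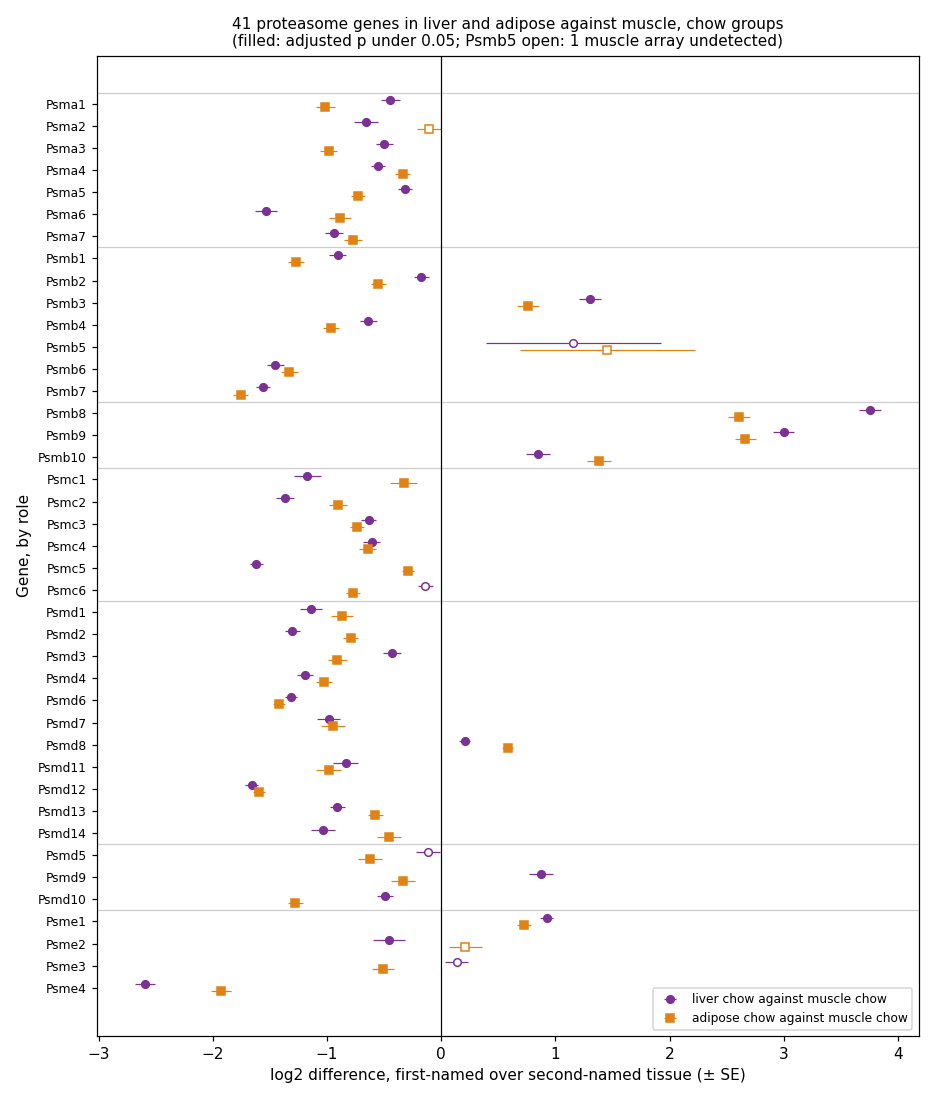
Log2 difference of each of 41 proteasome genes (Psmb11 and Psmc3ip left out) between chow liver or chow adipose tissue and chow muscle, with SE bars (3 arrays a group) and filled points where the adjusted p was below 0.05. Most points lie left of 0, lower than in muscle, while Psmb8 and Psmb9 lie at 2.61 or more to the right.

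In liver the HFrD diet alone changed few members. In HFrD-NDGA against HFrD 8 of 11 19S non-ATPases were higher, with 2 of 7 α-subunits, 2 of 7 constitutive β-subunits and 2 of 6 ATPases, while Psmb8 and 1 ATPase were lower. HFrD against chow gave 8 of 43 members higher and 2 lower (9.93% of all entries were higher and 6.05% lower), with a median member change of 0.06. HFrD-NDGA against HFrD gave 14 higher and 2 lower (8.26% higher, 7.03% lower), with a median of 0.21. HFrD-NDGA against chow gave 26 higher and 3 lower (17.6% higher, 13% lower), with a median of 0.30. The comparisons share arrays.

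Under all 3 scalings the same call was made for 4 members in HFrD against chow (Psmb7, Psmb8, Psmd5 and Psmd12, all higher), for 3 in HFrD-NDGA against HFrD (Psma6 and Psmd14 higher, Psmb8 lower) and for 22 in HFrD-NDGA against chow, all of them higher. Those 22 were 5 α-subunits, Psmb2, Psmb6 and Psmb7, 3 ATPases, 10 of the 11 non-ATPases and Psmd5. In HFrD-NDGA against chow the median over all entries moved to 0.11 with centring and -0.16 without scaling, where the members' medians were 0.84 and 0.36. Entries higher in that comparison numbered 3486 with quantile normalisation, 5009 with centring and 1861 without scaling.

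The class with most calls was the non-ATPases, with 8 of 11 higher in HFrD-NDGA than in HFrD (median 0.30) and 10 of 11 higher than in chow (median 0.38). Under all 3 scalings only Psmd14 kept the call against HFrD, while 10 kept it against chow. Psmd14, the deubiquitinase of the 19S lid, had 13.02, 13.08 and 13.23 on the HFrD-NDGA arrays, 12.36, 12.43 and 12.52 on the HFrD arrays and 12.23, 12.03 and 12.47 on the chow arrays. Every HFrD-NDGA array lay above every HFrD and chow array, and HFrD-NDGA was 1.59-fold above HFrD (log2 change 0.67, SE 0.116, adjusted p = 0.0108) and 1.82-fold above chow. Psmd3, a structural lid subunit, had 12.27, 12.33 and 12.44 on the HFrD-NDGA arrays, 11.78, 11.78 and 11.69 on the HFrD arrays and 11.79, 11.48 and 11.93 on the chow arrays, again with the HFrD-NDGA arrays above all others (0.59 against HFrD, SE 0.113, adjusted p = 0.0152). The Psmd3 call against HFrD was lost when any HFrD array was left out (adjusted p up to 0.055) and was not made without scaling (adjusted p = 0.0591).

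Psmd11, a lid scaffold subunit, had 7.86, 7.79 and 7.58 on the HFrD-NDGA arrays, 7.33, 7.65 and 7.37 on the HFrD arrays and 6.76, 6.96 and 6.71 on the chow arrays, a low level at which HFrD exceeded chow by 1.56-fold (0.64, SE 0.119, adjusted p = 0.0159, or 0.0534 without chow array 1) and HFrD-NDGA exceeded chow by 1.91-fold. The 2 fructose groups overlapped each other for Psmd11 and did not overlap chow. Psmd5, a chaperone that holds an ATPase during assembly of the base, had 8.82, 8.71 and 8.43 on the HFrD-NDGA arrays, 8.64, 8.65 and 8.71 on the HFrD arrays and 8.03, 8.03 and 7.93 on the chow arrays. Both fructose groups lay above chow for Psmd5 (HFrD against chow 0.67, SE 0.096, adjusted p = 0.00621), and they overlapped each other.

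Among the ATPases, Psmc3 had 12.50, 12.50 and 12.53 on the HFrD-NDGA arrays, 12.12, 12.16 and 12.15 on the HFrD arrays and 12.31, 12.33 and 12.40 on the chow arrays, with HFrD lowest (-0.20 against chow, SE 0.028, adjusted p = 0.00509) and HFrD-NDGA highest (0.37 against HFrD, adjusted p = 0.000323). The Psmc3 fall in HFrD turned to 0.21 when arrays were centred. Psmc6 had 11.35, 11.49 and 11.53 on the HFrD-NDGA arrays, 11.74, 11.69 and 11.76 on the HFrD arrays and 11.47, 11.56 and 11.68 on the chow arrays, and its HFrD-NDGA change against HFrD of -0.28 (SE 0.066, adjusted p = 0.0364) lost its call without any of 5 of the 6 arrays compared. HFrD-NDGA and chow overlapped for Psmc6.

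The catalytic subunits did not move alike. Psmb8 had 10.62, 10.62 and 10.74 on the HFrD-NDGA arrays, 11.70, 11.76 and 11.80 on the HFrD arrays and 11.48, 11.36 and 11.22 on the chow arrays. The HFrD-NDGA arrays lay below all others, at 0.467 times the HFrD level (-1.10, SE 0.071, adjusted p = 0.000149), and HFrD lay above chow by 1.32-fold (0.40, SE 0.071, adjusted p = 0.0129, or 0.0511 without HFrD array 3). Psmb9, whose gene lies near Psmb8 on chromosome 20, had 12.11, 11.78 and 11.77 on the HFrD-NDGA arrays, 11.84, 11.82 and 11.80 on the HFrD arrays and 12.74, 12.85 and 12.56 on the chow arrays. For Psmb9 both fructose groups lay below chow (HFrD against chow -0.90, SE 0.110, adjusted p = 0.00352) and overlapped each other, and the HFrD call was not made with centring, where the change was -0.48.

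Psmb10 had 11.38, 11.18 and 11.19 on the HFrD-NDGA arrays, 11.59, 11.77 and 11.55 on the HFrD arrays and 11.86, 11.93 and 11.32 on the chow arrays, with HFrD and chow overlapping and no call in either comparison (HFrD-NDGA against HFrD -0.39, adjusted p = 0.188). Of the constitutive catalytic subunits, Psmb6, the caspase-like site, had 14.05, 14.03 and 14.19 on the HFrD-NDGA arrays, 13.78, 13.77 and 14.02 on the HFrD arrays and 13.77, 13.74 and 13.88 on the chow arrays. Its HFrD-NDGA arrays lay above the others (0.24 against HFrD, adjusted p = 0.109, and 0.30 against chow, adjusted p = 0.0356).

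Psmb7, the trypsin-like site, had 12.68, 12.68 and 12.73 on the HFrD-NDGA arrays, 12.60, 12.49 and 12.52 on the HFrD arrays and 12.09, 12.02 and 12.22 on the chow arrays. The 3 groups did not overlap, and HFrD was 1.34-fold above chow (0.42, SE 0.055, adjusted p = 0.00429). Psmb5, the chymotrypsin-like site, had 9.44, 13.98 and 14.08 on the HFrD-NDGA arrays, 13.74, 13.78 and 13.94 on the HFrD arrays and 14.14, 13.99 and 14.17 on the chow arrays. The undetected HFrD-NDGA spot set its change of -1.32 against HFrD (SE 1.191, adjusted p = 0.544), which was 0.21 without that array.

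Of the PA28 genes, Psme1 had 13.88, 13.93 and 13.77 on the HFrD-NDGA arrays, 14.04, 14.03 and 14.06 on the HFrD arrays and 14.06, 14.16 and 14.22 on the chow arrays, with the HFrD-NDGA arrays lowest (-0.29 against chow, adjusted p = 0.00855). Psme2 had 7.63, 7.73 and 7.23 on the HFrD-NDGA arrays, 7.34, 7.29 and 7.58 on the HFrD arrays and 6.78, 7.04 and 6.89 on the chow arrays, with both fructose groups above chow (HFrD against chow 0.49, SE 0.150, adjusted p = 0.071). The calls of Psmb8, Psmb9 and Psme1 below chow in HFrD-NDGA were not made with arrays centred on their median. Lymphocyte markers summed to 1594 to 1881 in HFrD-NDGA liver, 1975 to 2293 in HFrD liver and 2919 to 3054 in chow liver. Macrophage markers summed to 18250 to 18960 in HFrD-NDGA liver, 15600 to 16210 in HFrD liver and 18570 to 20080 in chow liver, so HFrD was lowest for these. Alas2, the only erythroid marker on the array, had 496.4 to 537.7 in HFrD-NDGA liver, 2152 to 2304 in HFrD liver and 500.8 to 635.3 in chow liver. The part of these cells was not tested.

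Other genes of the pathway were also called in liver, where 8.26% of all entries were higher and 7.03% lower in HFrD-NDGA than in HFrD. Of 14 further proteasome parts and partners, 4 were higher and 2 lower in HFrD-NDGA than in HFrD, among them Psmf1, the proteasome inhibitor PI31 (0.49), and Akirin2, a factor for nuclear import of proteasomes (-0.59). Of 7 regulators of proteasome genes, Ddi2 (0.36), the protease that activates Nfe2l1, and Ngly1 (0.50), the glycanase that edits it, were higher and none lower. Of 11 genes of ubiquitin supply and shuttling, Ubqln1 (0.41) and Ubqln2 (0.62), shuttle factors, were higher. Of 7 atrophy genes, Fbxo21, a ubiquitin ligase subunit (0.50), and Foxo1, a transcription factor (0.58), were higher and none lower. Psmf1, Ubqln2 and Fbxo21 kept the call under all 3 scalings, and the other genes named here did not. The interferon list had 0 of 19 higher and 3 lower, none of them under all 3 scalings.

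**Figure D2:**
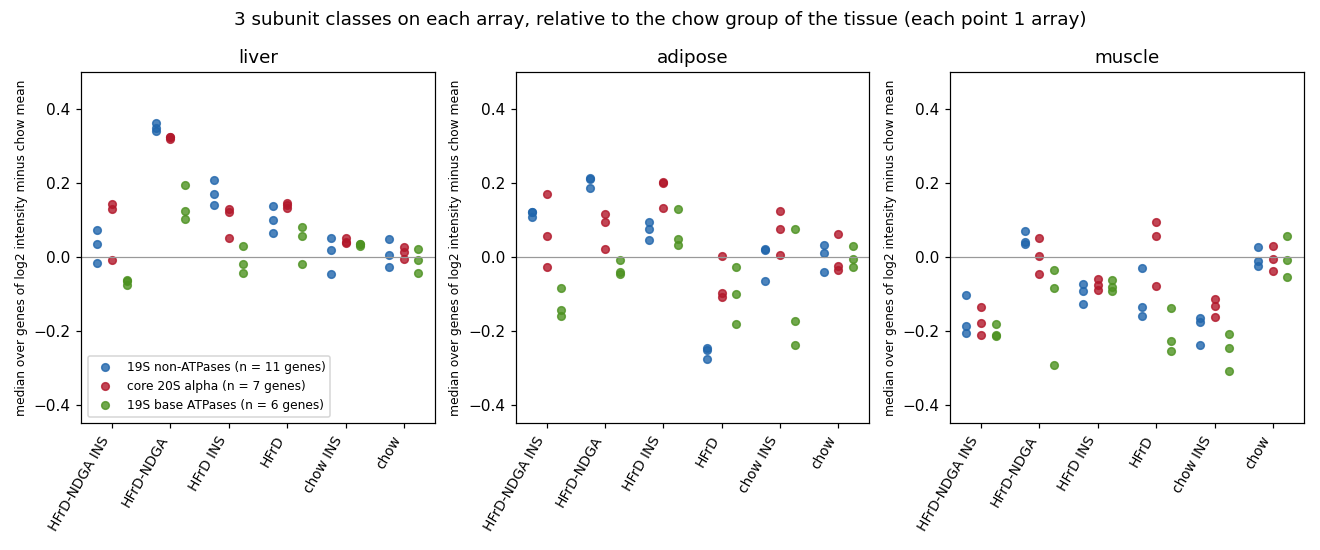
Median log2 intensity of the 11 non-ATPases, the 7 α-subunits and the 6 ATPases on each array (1 point an array) minus the chow mean, for liver, adipose tissue and muscle, 3 arrays a group. The non-ATPase median lay 0.34 to 0.36 above chow on the liver HFrD-NDGA arrays and 0.25 to 0.28 below chow on the adipose HFrD arrays.

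In muscle the HFrD diet was accompanied by higher Psmb8 and Psmb9 and by lower levels of 5 of 7 constitutive β-subunits, and with NDGA on the diet Psmb8 and Psmb9 were lower than in HFrD. HFrD against chow gave 4 of 43 members higher and 17 lower (16.9% of all entries were higher and 18.7% lower), with a median of -0.20. Without scaling only 5 were higher and 3 lower, with a median of -0.03, while 4633 of all entries were higher and 1230 lower. HFrD-NDGA against HFrD gave 14 higher and 6 lower (17.4% higher, 16.7% lower), with a median of 0.12 that turned to -0.10 without scaling, where 0 were higher and 9 lower. Of all entries, 1043 were higher and 4896 lower in that comparison without scaling. HFrD-NDGA against chow gave 2 higher and 1 lower (3.63% higher, 2.19% lower).

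The calls made under all 3 scalings were Psmb8 and Psmb9 higher and Psmb1, Psmb6 and Psme4 lower in HFrD than in chow, and Psmb3, Psmb8, Psmb9 and Psmb10 lower in HFrD-NDGA than in HFrD. No member kept a call under all 3 scalings between HFrD-NDGA and chow.

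Psmb8 had 8.13, 7.68 and 8.10 on the HFrD-NDGA arrays, 8.71, 8.85 and 8.73 on the HFrD arrays and 7.34, 7.55 and 7.25 on the chow arrays. HFrD was 2.61-fold above chow (1.38, SE 0.138, adjusted p = 0.000388), HFrD-NDGA was 0.578 times HFrD (-0.79, SE 0.138, adjusted p = 0.00495), and HFrD-NDGA stayed above chow on every array without passing the test (0.59, adjusted p = 0.0624). Psmb9 had 9.21, 9.32 and 9.49 on the HFrD-NDGA arrays, 9.96, 10.25 and 10.28 on the HFrD arrays and 9.38, 9.26 and 9.42 on the chow arrays. Its HFrD arrays lay above all others (0.81 against chow, SE 0.109, adjusted p = 0.00148), and the HFrD-NDGA arrays overlapped chow (-0.82 against HFrD, adjusted p = 0.00146, and -0.01 against chow).

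Psmb10 had 9.92, 10.37 and 10.42 on the HFrD-NDGA arrays, 10.63, 10.89 and 10.87 on the HFrD arrays and 10.66, 10.71 and 10.57 on the chow arrays. HFrD and chow overlapped, and HFrD-NDGA lay below both, at 0.678 times HFrD (-0.56, SE 0.146, adjusted p = 0.0257), with adjusted p up to 0.0823 when an HFrD array was left out. Of the interferon and antigen presentation list, 15 of 19 were higher and 0 lower in HFrD than in chow (median 0.83) and 0 higher and 15 lower in HFrD-NDGA than in HFrD (median -0.93). Those 15 calls were made under all 3 scalings in both comparisons. The largest changes of the list in HFrD were Cd74, the MHC class II invariant chain (2.16), and Mx1, an antiviral GTPase (1.95), and Tap1, the peptide transporter that the immunoproteasome feeds, changed by 1.29.

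Macrophage markers summed to 6388 to 7115 in HFrD-NDGA muscle, 16810 to 17100 in HFrD muscle and 4561 to 4700 in chow muscle, with 9 of 10 detected on all HFrD arrays and 8 in the other 2 groups. Lymphocyte markers summed to 939.9 to 1016 in HFrD-NDGA muscle, 1355 to 1605 in HFrD muscle and 940.4 to 1232 in chow muscle, with 6 of 12 detected on all HFrD arrays and 2 in each of the others. Hepatocyte markers summed to 27950 to 28200 in HFrD-NDGA muscle, 3672 to 3898 in HFrD muscle and 16570 to 17690 in chow muscle, with all 10 detected on all HFrD-NDGA and chow arrays and 7 on all HFrD arrays. The part of these cells in the member and interferon list changes of muscle was not tested.

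Most constitutive β-subunits ran the other way from Psmb8 and Psmb9, with 5 of 7 lower in HFrD than in chow (median -0.28). Of these, only Psmb1 and Psmb6 were lower under all 3 scalings. The α-subunits did not share a direction, with 1 of 7 higher and 3 lower (median 0.03). Of the ATPases 0 of 6 were higher and 2 lower (median -0.21), and of the non-ATPases 1 of 11 higher and 4 lower (median -0.17). Psmb6 had 14.83, 14.82 and 14.84 on the HFrD-NDGA arrays, 14.58, 14.55 and 14.69 on the HFrD arrays and 15.05, 15.07 and 14.93 on the chow arrays. The 3 groups did not overlap, with HFrD at 0.754 times chow (-0.41, SE 0.047, adjusted p = 0.000772) and HFrD-NDGA at 1.17 times HFrD (0.22, adjusted p = 0.0115). Psmb7 had 13.46, 13.21 and 13.21 on the HFrD-NDGA arrays, 13.18, 13.26 and 13.27 on the HFrD arrays and 13.51, 13.60 and 13.44 on the chow arrays, lower in HFrD than in chow (-0.28, SE 0.078, adjusted p = 0.0324, and above 0.05 without any of 5 of the 6 arrays).

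Psmb5 had 14.69, 14.39 and 14.20 on the HFrD-NDGA arrays, 14.04, 13.75 and 13.37 on the HFrD arrays and 14.44, 14.47 and 8.89 on the chow arrays. The undetected chow spot set its HFrD change of 1.12 (SE 1.466, adjusted p = 0.655), which was -0.73 without that array. Psme4 had 10.80, 10.66 and 10.57 on the HFrD-NDGA arrays, 10.26, 10.30 and 10.27 on the HFrD arrays and 10.80, 10.90 and 10.82 on the chow arrays. HFrD lay below both other groups, at 0.676 times chow (-0.56, SE 0.059, adjusted p = 0.000486), and HFrD-NDGA was 1.32 times HFrD (0.40, SE 0.059, adjusted p = 0.00233, and 0.09 with no call when arrays were not scaled).

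The nuclear PA28γ cap Psme3 had 9.89, 9.89 and 9.84 on the HFrD-NDGA arrays, 9.43, 9.38 and 9.31 on the HFrD arrays and 9.51, 9.57 and 9.69 on the chow arrays, with the HFrD-NDGA arrays above all others (0.50 against HFrD, SE 0.051, adjusted p = 0.000448). Psme1 had 13.08, 12.93 and 12.86 on the HFrD-NDGA arrays, 12.96, 12.99 and 12.94 on the HFrD arrays and 12.75, 12.90 and 12.81 on the chow arrays, and Psme2 had 7.13, 6.82 and 6.98 on the HFrD-NDGA arrays, 6.90, 6.62 and 6.92 on the HFrD arrays and 7.12, 7.04 and 7.11 on the chow arrays. Neither passed the test in a muscle diet comparison without INS, while in HFrD INS against chow INS Psme1 was lower (-0.44, SE 0.054, adjusted p = 5.71e-05). Psmc3ip had 8.75, 8.60 and 8.61 on the HFrD-NDGA arrays, 8.21, 8.37 and 8.46 on the HFrD arrays and 8.98, 9.20 and 8.95 on the chow arrays, lower in HFrD than in chow (-0.70, SE 0.092, adjusted p = 0.00137), and it is one of the 17 lower members.

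Of the other pathway genes in muscle, 4 of 14 further proteasome parts were lower and 1 higher in HFrD than in chow, with the largest falls in Adrm1, the ubiquitin receptor of the cap (-0.68), and Psmg1, an α-ring chaperone (-0.37). In HFrD-NDGA against HFrD 5 were higher and 0 lower. Of all entries, 16.9% were higher and 18.7% lower in HFrD against chow, and 17.4% and 16.7% in HFrD-NDGA against HFrD. Of 7 regulators 3 were lower in HFrD, with Ddi2 at -0.96 and Keap1, the Nfe2l2 repressor, at -0.50, and in HFrD-NDGA against HFrD Ddi2 (1.05) and Keap1 (0.41) were higher and Nfe2l1 itself lower (-0.44, adjusted p = 0.00149). Of 7 atrophy genes 2 were lower and 1 higher in HFrD, and in HFrD-NDGA against HFrD 4 were higher, led by Fbxo32, the ligase atrogin-1 (1.10), and Trim63, the ligase MuRF1 (0.56). Under all 3 scalings the calls of Ddi2 in both comparisons, and of Nfe2l1, Fbxo32 and Trim63 in HFrD-NDGA against HFrD, were made. In HFrD against chow those of Trim63 (lower) and Foxo3 (higher) were made too. The calls of Adrm1, Psmg1 and Keap1 were not made under all 3 scalings.

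**Figure D3:**
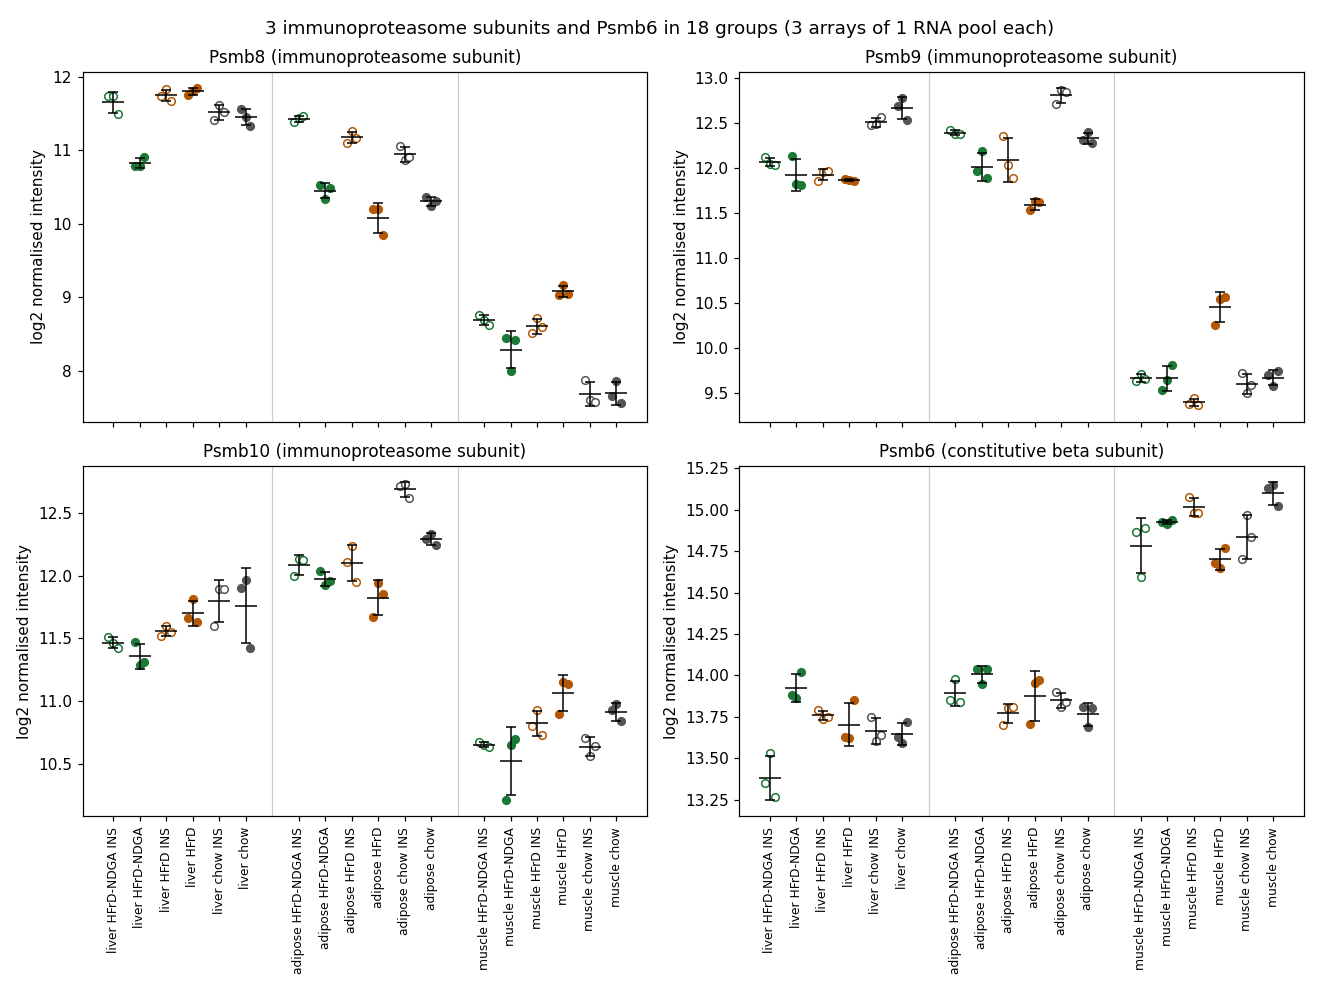
Log2 normalised intensity of Psmb8, Psmb9, Psmb10 and Psmb6 on every array of the 18 groups (points), with the mean and SD of the 3 arrays of a group, and open points for groups labelled INS. Psmb8 group means span 7.69 to 9.08 in muscle, highest in HFrD, and 10.83 to 11.80 in liver, lowest in HFrD-NDGA.

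In epididymal adipose tissue most called members were lower in HFrD than in chow and higher in HFrD-NDGA than in HFrD. HFrD against chow gave 2 of 43 members higher and 17 lower (15.7% of all entries were higher and 35.1% lower), so the lower share of 39.5% stood near that of all entries with these values, while with centring 41 of 43 members and 9307 of 19802 entries were lower. The 2 higher were Psmb11, which was at background, and Psmc3ip. HFrD-NDGA against HFrD gave 25 higher and 1 lower (32.3% higher, 15.4% lower), the 1 being Psmb11. HFrD-NDGA against chow gave 12 higher and 5 lower (9.10% higher, 10.9% lower), with 6 to 14 members called when 1 array was left out.

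All comparisons with adipose HFrD set arrays with the seminal vesicle and epididymis signal against arrays with far less of it, and its part in the member changes was not tested. Alas2 was also highest there, at 34620 to 36770, against 2187 to 5011 in the other adipose groups. The adipose chow arrays stood apart too, with fast skeletal muscle markers summing to 1873 to 2011 in HFrD-NDGA, 7090 to 7746 in HFrD and 45690 to 46960 in chow, against 1624 to 5958 in the 3 INS groups. All comparisons with adipose chow, Psmb3 and Psme4 below among them, hold these arrays, and the part of muscle RNA was not tested. The median over all entries was -0.11 in HFrD against chow and 0.09 in HFrD-NDGA against HFrD, where the members' medians were -0.09 and 0.26, and centring moved the HFrD medians to -0.32 over all entries and -0.62 over the members. Under all 3 scalings 11 members were lower in HFrD than in chow, 25 were higher in HFrD-NDGA than in HFrD, and none had a call between HFrD-NDGA and chow. Over all entries, 6945 were lower in HFrD than in chow with quantile normalisation, 9307 with centring and 3565 without scaling. Entries higher in HFrD-NDGA than in HFrD numbered 6398, 7331 and 6089 in the same order.

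Psmb3, a non-catalytic β-subunit, had 7.83, 7.86 and 7.94 on the HFrD-NDGA arrays, 7.25, 7.49 and 7.61 on the HFrD arrays and 8.28, 8.20 and 8.30 on the chow arrays. The groups did not overlap, with HFrD at 0.570 times chow (-0.81, SE 0.090, adjusted p = 0.000381) and HFrD-NDGA between the other two. Psme4 had 8.95, 8.93 and 9.12 on the HFrD-NDGA arrays, 8.98, 8.82 and 8.47 on the HFrD arrays and 9.65, 9.50 and 9.42 on the chow arrays, with both fructose groups below chow (HFrD against chow -0.76, SE 0.137, adjusted p = 0.0034). Psmc3ip had 9.18, 9.30 and 9.23 on the HFrD-NDGA arrays, 9.38, 9.32 and 9.21 on the HFrD arrays and 9.01, 8.93 and 8.95 on the chow arrays, higher in HFrD than in chow (0.34, SE 0.052, adjusted p = 0.00158).

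All 3 assembly chaperones were higher in HFrD-NDGA than in HFrD (median 0.68). Psmd5 had 7.98, 8.11 and 8.23 on the HFrD-NDGA arrays, 7.41, 7.47 and 7.38 on the HFrD arrays and 8.03, 7.88 and 7.92 on the chow arrays. HFrD lay below both other groups, and HFrD-NDGA was 1.61-fold above it (0.69, SE 0.068, adjusted p = 0.000256). Psmd10, known as gankyrin, had 9.64, 9.73 and 9.74 on the HFrD-NDGA arrays, 9.06, 8.97 and 9.05 on the HFrD arrays and 9.35, 9.29 and 9.25 on the chow arrays, with the 3 groups apart and HFrD-NDGA highest (0.68 against HFrD, SE 0.040, adjusted p = 2.9e-05). Of the non-ATPases 9 of 11 were higher and none lower (median 0.33), although Psmd11 was not detected on any HFrD array, and of the constitutive β-subunits 5 of 7 were higher (median 0.39).

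Psmb9 had 12.11, 12.30 and 12.05 on the HFrD-NDGA arrays, 11.72, 11.82 and 11.80 on the HFrD arrays and 12.41, 12.49 and 12.38 on the chow arrays. The 3 groups did not overlap, with HFrD at 0.639 times chow (-0.65, SE 0.069, adjusted p = 0.000323) and HFrD-NDGA above HFrD (0.37, adjusted p = 0.0041). Psmb10 had 12.17, 12.08 and 12.11 on the HFrD-NDGA arrays, 11.86, 12.10 and 12.02 on the HFrD arrays and 12.39, 12.43 and 12.35 on the chow arrays, with both fructose groups below chow (HFrD against chow -0.40, SE 0.062, adjusted p = 0.00172). Psmb8 had 10.83, 10.64 and 10.79 on the HFrD-NDGA arrays, 10.52, 10.52 and 10.19 on the HFrD arrays and 10.67, 10.56 and 10.62 on the chow arrays, with HFrD-NDGA above HFrD (0.34, adjusted p = 0.029, or up to 0.0881 when 1 array was left out) and no call between HFrD and chow. The interferon and antigen presentation list was mixed here. Under all 3 scalings 3 of its 19 genes were higher and 7 lower in HFrD than in chow. In HFrD-NDGA against HFrD 8 were higher and 4 lower under all 3 scalings. The part of other tissues' RNA in these list changes was not tested.

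Psme2 had 7.60, 7.88 and 7.99 on the HFrD-NDGA arrays, 7.26, 7.38 and 7.42 on the HFrD arrays and 7.99, 7.91 and 7.80 on the chow arrays, lower in HFrD than in chow (-0.55, SE 0.107, adjusted p = 0.005) and higher in HFrD-NDGA than in HFrD (0.47, adjusted p = 0.0105), while its partner Psme1 had 13.81, 13.79 and 13.87 on the HFrD-NDGA arrays, 13.79, 13.81 and 13.56 on the HFrD arrays and 13.70, 13.66 and 13.59 on the chow arrays and no call. The 2 genes of the PA28αβ ring differed in their calls, and the difference between them was not tested.

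Psmb5 had 14.27, 14.25 and 14.29 on the HFrD-NDGA arrays, 14.10, 13.99 and 13.92 on the HFrD arrays and 14.14, 13.92 and 14.13 on the chow arrays, with HFrD-NDGA above both other groups (0.27 against HFrD, SE 0.069, adjusted p = 0.0173, or up to 0.0568 when 1 array was left out). Psmb6 had 13.89, 13.80 and 13.89 on the HFrD-NDGA arrays, 13.59, 13.81 and 13.83 on the HFrD arrays and 13.67, 13.58 and 13.67 on the chow arrays, and Psmb7 had 12.39, 12.29 and 12.45 on the HFrD-NDGA arrays, 12.38, 12.19 and 12.07 on the HFrD arrays and 12.07, 12.06 and 12.12 on the chow arrays. Neither passed the test in HFrD against chow or in HFrD-NDGA against HFrD, and their HFrD arrays overlapped both other groups.

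**Figure D4:**
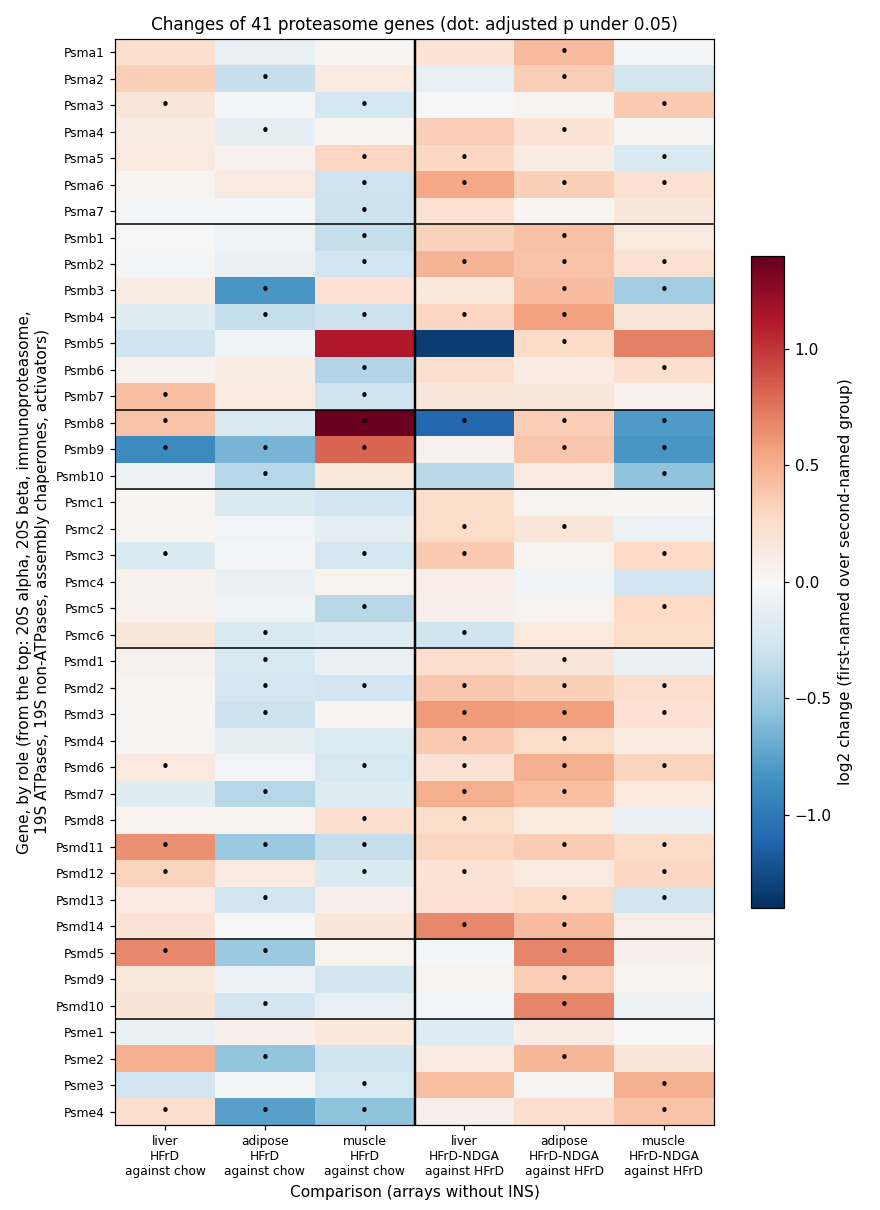
Heat map of the log2 change of 41 proteasome genes (rows, by role) in the 6 diet comparisons without INS (columns, by tissue), with a dot where the adjusted p was below 0.05. The large Psmb5 cells of liver and muscle rest on 1 undetected spot each and were not called. In muscle HFrD against chow Psmb8 and Psmb9 are among the 4 members higher, and 16 of these genes are lower. HFrD-NDGA against HFrD has 25 members higher in adipose tissue, 14 in liver and 13 of these genes in muscle.

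The groups labelled INS allowed the diet comparisons under that label, from other RNA pools. As the label is not explained, they are not known to repeat the groups without INS. In liver HFrD INS against chow INS gave 6 members higher and 3 lower (5.12% of all entries were higher and 6.36% lower), and HFrD-NDGA INS against HFrD INS gave 4 higher and 9 lower (7.27% higher, 10.2% lower). In muscle the counts were 9 higher and 2 lower (12.1% higher, 11.6% lower) and 0 higher and 4 lower (9.51% higher, 5.86% lower). In adipose tissue they were 6 higher and 2 lower (11.8% higher, 12.3% lower) and 6 higher and 6 lower (16.0% higher, 9.96% lower). These counts moved with the scaling: HFrD INS against chow INS gave 33 higher and 2 lower in adipose tissue without scaling and 0 and 2 with centring, and in liver HFrD-NDGA INS against HFrD INS gave 0 higher and 10 lower with centring and 4 and 2 without scaling. Over all entries, the adipose comparison had 7058 higher and 944 lower without scaling and 987 and 1741 with centring. The liver comparison had 674 and 2156 with centring and 3742 and 521 without scaling.

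Liver Psmb8 had 11.71, 11.71 and 11.43 on the HFrD-NDGA INS arrays, 11.71, 11.82 and 11.64 on the HFrD INS arrays and 11.35, 11.58 and 11.47 on the chow INS arrays. The HFrD-NDGA INS and HFrD INS arrays overlapped (-0.10, adjusted p = 0.484), and the NDGA effect of the INS arrays minus that without INS was 0.99 (adjusted p = 0.000272). For Psmd14 the same difference was -0.86 (adjusted p = 0.00576) and for Psmd3 -0.86 (adjusted p = 0.00507). Liver Psmb9 had 12.13, 12.05 and 12.04 on the HFrD-NDGA INS arrays, 11.85, 11.95 and 11.97 on the HFrD INS arrays and 12.53, 12.54 and 12.62 on the chow INS arrays, again with both fructose groups below chow INS (HFrD INS against chow INS -0.64, SE 0.086, adjusted p = 0.000241), although not under all 3 scalings.

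Muscle Psmb8 had 8.38, 8.31 and 8.24 on the HFrD-NDGA INS arrays, 8.13, 8.33 and 8.21 on the HFrD INS arrays and 7.49, 7.23 and 7.20 on the chow INS arrays. Both fructose groups lay above chow INS, HFrD INS by 1.89-fold (0.92, SE 0.119, adjusted p = 8.87e-05), under all 3 scalings. Muscle Psmb9 had 9.26, 9.35 and 9.28 on the HFrD-NDGA INS arrays, 9.0, 9.07 and 9.0 on the HFrD INS arrays and 9.35, 9.12 and 9.22 on the chow INS arrays, with HFrD INS lowest and no call against chow INS (-0.21, adjusted p = 0.127). The HFrD effect with INS minus that without INS was -0.47 for Psmb8 (adjusted p = 0.0402), -1.02 for Psmb9 (adjusted p = 2.37e-05) and 1.08 for Psme4 (adjusted p = 2.43e-07), and the interferon list had 3 of 19 higher and 4 lower in HFrD INS against chow INS. Macrophage markers summed to 4202 to 4435 in HFrD INS muscle, against 6296 to 6385 in chow INS muscle. Their part in the Psmb8 change was not tested.

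Adipose Psmb9 had 12.60, 12.56 and 12.56 on the HFrD-NDGA INS arrays, 12.54, 12.26 and 12.13 on the HFrD INS arrays and 12.86, 12.97 and 12.96 on the chow INS arrays, and adipose Psmb10 had 12.23, 12.35 and 12.34 on the HFrD-NDGA INS arrays, 12.33, 12.44 and 12.19 on the HFrD INS arrays and 12.86, 12.87 and 12.78 on the chow INS arrays. For both genes chow INS lay above both fructose groups, and HFrD INS was lower than chow INS under all 3 scalings (-0.62, SE 0.087, adjusted p = 0.000134 for Psmb9, and -0.52, SE 0.066, adjusted p = 5.58e-05 for Psmb10). The HFrD effect with INS minus that without INS was 0.03 for Psmb9 (adjusted p = 0.96) and -0.11 for Psmb10 (adjusted p = 0.389), which does not show that the effects were equal. The seminal vesicle and epididymis sum was 1026 to 1180 in HFrD INS and 621.1 to 713.6 in chow INS, and lymphocyte markers summed to 1740 to 1827 in HFrD INS and 13090 to 14210 in chow INS. Without INS the lymphocyte sum ran the other way, with 2789 to 3472 in HFrD and 1897 to 2036 in chow. The part of lymphocytes was not tested.

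Set against the groups without INS, the largest member counts were in liver HFrD-NDGA, muscle chow and adipose HFrD. HFrD-NDGA INS liver against HFrD-NDGA liver gave 2 members higher and 28 lower (8.46% higher, 11.9% lower), with a median of -0.28. Psmd14 had 12.26, 12.51 and 12.27 on the HFrD-NDGA INS arrays, against 13.06, 13.12 and 13.28 on the HFrD-NDGA arrays (-0.81, SE 0.121, adjusted p = 0.00074). Of the 28, 4 were lower under all 3 scalings (Psmb6, Psmd2, Psmd3 and Psmd14), and the interferon list had 13 of 19 higher (median 0.53). Psmb8 was 1.89-fold higher with INS (0.92, SE 0.087, adjusted p = 1.76e-05), although not under all 3 scalings.

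Chow INS muscle against chow muscle gave 1 member higher and 18 lower (10.5% higher, 11.6% lower), with a median of -0.23, and 16 of the 18 were lower under all 3 scalings. Among them, Psmc1, an ATPase, changed by -0.54 (SE 0.124, adjusted p = 0.00647) and Psme4 by -0.34 (SE 0.059, adjusted p = 0.00109). HFrD INS muscle against HFrD muscle gave 9 higher and 6 lower (22.9% higher, 18.6% lower), with Psmb9 at 0.467 times HFrD (-1.10, SE 0.091, adjusted p = 4.45e-07). HFrD-NDGA INS muscle against HFrD-NDGA muscle gave 1 higher and 13 lower (9.28% higher, 6.96% lower), and with centring 2 higher and 0 lower. With centring, 2554 of all entries were higher and 608 lower in that comparison.

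HFrD INS adipose tissue against HFrD adipose tissue gave 22 members higher and 0 lower (32.1% higher, 14.6% lower), 16 of them under all 3 scalings, in the comparison that again has the adipose HFrD arrays in it. Psmb8 was 1.99-fold higher with INS there (0.99, SE 0.083, adjusted p = 4.94e-07) and 1.84-fold higher in HFrD-NDGA INS than in HFrD-NDGA (0.88, SE 0.083, adjusted p = 1.8e-05), both under all 3 scalings. HFrD-NDGA INS against HFrD-NDGA gave 2 higher and 3 lower in all (5.15% higher, 3.09% lower), and chow INS against chow 4 higher and 5 lower (8.87% higher, 13.3% lower). In liver chow INS against chow gave 4 higher and 0 lower (9.22% higher, 3.22% lower), or 36 and 0 with centring and 0 and 0 without scaling, and HFrD INS against HFrD 1 higher and 2 lower (2.29% higher, 2.01% lower). Over all entries, liver chow INS against chow had 5851 higher and 846 lower with centring and 187 and 913 without scaling.

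The diet effects themselves differed between tissues for several members when the difference was tested. The HFrD effect on Psmb8 in liver minus that in muscle was -1.03 (SE 0.139, adjusted p = 1.04e-07) and on Psmb9 -1.58 (SE 0.128, adjusted p = 4.88e-13). In adipose tissue minus muscle it was -1.61 for Psmb8 (adjusted p = 1.53e-12) and -1.52 for Psmb9 (adjusted p = 7.62e-13). The NDGA effect in liver minus that in muscle was -0.18 for Psmb8 (adjusted p = 0.342), 0.85 for Psmb9 (adjusted p = 1.01e-06) and 0.50 for Psmd14 (adjusted p = 0.00761). In liver minus adipose tissue the NDGA effect was -1.34 for Psmb8 (adjusted p = 3.85e-10) and 0.06 for Psmd14 (adjusted p = 0.843).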

How the data were processed

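RNA of each group was pooled and hybridised to 3 Rat OneArray arrays (1-colour). The authors scanned them with GenePix and deposited background-subtracted, linear intensities per probe (-44 to 65506), with a detection p-value and a flag per spot. These values were deposited under the name normalized, but array medians ran from 71 to 193, so the arrays did not share 1 scale. Their second deposited file repeated the same values. Of 24358 probes, 21270 had 1 name, 1175 several and 1913 (7.85%) none. Between 49.3% and 63.2% of probes were detected per array. With 3 arrays a group, precision is limited by that number.

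Here the arrays of a fit were quantile normalised, with values below 16 set to 16 before the log2 transform. The brightest probe per gene was tested with limma 3.58.1 (R 4.3.3, lmFit and eBayes, Benjamini-Hochberg over 19802 entries). Diet comparisons used the 9 arrays of a tissue without INS, INS comparisons all 18, and tissue comparisons all 54. Scripts were tested on simulated data. Alternatives were other scalings, a floor of 64, an offset of 16, the mean of probes, detected genes only, other sets of arrays and each array left out. Values per array are given for the 2 largest rises and falls past the threshold in each main diet comparison and for the catalytic and PA28αβ subunits. Psmb11, named by that rule in adipose tissue, was left out because it was at background. The members and lists were chosen with earlier results of these data known.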

Additional observations from a re-analysis of the deposited data

Results flagged for a closer look

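The tests of a difference between 2 diet effects passed for several members in each of 12 contrasts, and those counts are given here with the share of all entries that passed in each direction. The HFrD effect differed between liver and muscle for 21 of 43 members (17 more positive in liver, 4 more negative, against 21.7% and 16.2% of all entries), between adipose tissue and muscle for 18 (10 and 8, against 19.5% and 28.7%), and between liver and adipose tissue for 17 (17 and 0, against 33.6% and 18%). The NDGA effect differed between liver and muscle for 15 (11 and 4, against 18.1% and 17.2%), between adipose tissue and muscle for 23 (19 and 4, against 27.8% and 18.8%), and between liver and adipose tissue for 14 (3 and 11, against 14.9% and 24.3%).

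Between arrays with and without INS, the HFrD effect differed in liver for 3 members (1 more positive with INS and 2 more negative, against 1.46% and 3.77% of all entries), in muscle for 21 (16 and 5, against 21.9% and 18.4%) and in adipose tissue for 15 (15 and 0, against 28.8% and 14.6%). The NDGA effect differed in liver for 20 (2 and 18, against 6.65% and 8.70% of all entries), in muscle for 19 (4 and 15, against 18.4% and 18.2%) and in adipose tissue for 14 (0 and 14, against 13.7% and 23.4%). Psmc3ip, which is no subunit, is among those more positive in 3 of the contrasts, the HFrD effect in liver and in adipose tissue minus muscle and in muscle with INS minus without. Counting both directions, a smaller share of members than of all entries passed in most contrasts with adipose tissue. The exception was the NDGA effect in adipose tissue minus muscle, where the share of members was larger. The share of members was also smaller for the NDGA effect in liver minus muscle, and larger in the remaining contrasts. These shares were not tested against each other. The contrasts share arrays, and those with adipose HFrD rest on the arrays with seminal vesicle and epididymis signal, whose part was not tested.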

How the results depend on the processing

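A floor of 64, the mean of a gene's probes and a detection filter moved no count of called members by over 1.5 times, and scaling moved most. Counts below are members called, with higher and lower in brackets, and the cause of a change was not tested. For centring and no scaling, the counts over all entries, higher then lower, follow in the same order of comparisons. Calls over all entries were not counted for the offset, the other sets of arrays, the arrays left out and the rescaled differences between effects.

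With arrays centred on their median, the counts in liver were 5 (4 and 1) in HFrD-NDGA against HFrD, 0 in HFrD INS against chow INS, 36 (36 and 0) in chow INS against chow and 0 in HFrD INS against HFrD. All entries had 853 and 509, 262 and 431, 5851 and 846, and 47 and 86. In muscle the member counts were 8 (4 and 4) in HFrD-NDGA against HFrD, 0 in HFrD-NDGA against chow and in HFrD-NDGA INS against HFrD INS, and 2 (2 and 0) in HFrD-NDGA INS against HFrD-NDGA. All entries had 2460 and 3202, 344 and 274, 1690 and 506, and 2554 and 608. In adipose tissue the member counts were 42 (1 and 41) in HFrD against chow, 4 (0 and 4) in HFrD-NDGA against chow, 2 (0 and 2) in HFrD INS against chow INS, 4 (4 and 0) in HFrD-NDGA INS against HFrD INS and 1 in HFrD-NDGA INS against HFrD-NDGA. All entries had 2530 and 9307, 944 and 2331, 987 and 1741, 3218 and 821, and 430 and 201. Chow liver against chow adipose tissue had 2 members higher and 21 lower, and 5885 and 8309 of all entries. The changes in liver HFrD against chow reversed for Psmc3, to 0.214, for Psmb10, to 0.356, and for Psmb5, to 0.158.

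With no scaling, the counts in liver were 7 (5 and 2) in HFrD-NDGA against HFrD, 5 (4 and 1) in HFrD INS against chow INS, 6 (4 and 2) in HFrD-NDGA INS against HFrD INS, 0 in chow INS against chow and 6 (2 and 4) in HFrD-NDGA INS against HFrD-NDGA. All entries had 833 and 1768, 1150 and 588, 3742 and 521, 187 and 913, and 6502 and 331. In muscle the member counts were 8 (5 and 3) in HFrD against chow, 9 (0 and 9) in HFrD-NDGA against HFrD, 1 in HFrD-NDGA against chow and in HFrD-NDGA INS against HFrD INS, 9 (2 and 7) in HFrD INS against HFrD and 0 in HFrD-NDGA INS against HFrD-NDGA. All entries had 4633 and 1230, 1043 and 4896, 501 and 218, 867 and 534, 1287 and 4514, and 733 and 618. In adipose tissue the member counts were 15 (15 and 0) in HFrD-NDGA against chow, 35 (33 and 2) in HFrD INS against chow INS, 7 (7 and 0) in HFrD-NDGA INS against HFrD INS, 3 (3 and 0) in chow INS against chow, 39 (39 and 0) in HFrD INS against HFrD and 9 (9 and 0) in HFrD-NDGA INS against HFrD-NDGA. All entries had 4417 and 587, 7058 and 944, 2771 and 1274, 2020 and 966, 9837 and 1808, and 3579 and 195. Liver HFrD against chow reversed for Psmb10, to 0.067.

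An offset of 16 gave 6 in liver HFrD against chow, 10 in HFrD-NDGA against HFrD and 5 in HFrD INS against chow INS, and in muscle 13 in HFrD-NDGA against HFrD, 1 in HFrD-NDGA against chow and 2 in HFrD-NDGA INS against HFrD INS. Fitting all 18 arrays of muscle gave 6 in HFrD-NDGA against chow. Fitting only the 6 arrays compared gave 4 in liver HFrD-NDGA INS against HFrD INS and 10 in HFrD-NDGA INS against HFrD-NDGA, in muscle 5 in HFrD INS against chow INS, 10 in chow INS against chow and 6 in HFrD-NDGA INS against HFrD-NDGA, and in adipose tissue 6 in HFrD-NDGA INS against HFrD INS and 3 in HFrD-NDGA INS against HFrD-NDGA.

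For the differences between effects, centring gave 37 members for the HFrD effect in liver minus muscle, 41 in liver minus adipose tissue, 6 for the NDGA effect in liver minus muscle, 8 in liver minus adipose tissue, and with INS minus without INS 1 (HFrD, liver), 8 (NDGA, muscle), 32 (HFrD, adipose) and 2 (NDGA, adipose). No scaling gave 13 for the HFrD effect in liver minus muscle and, with INS minus without, 1 (HFrD, liver), 6 (NDGA, liver), 3 (NDGA, muscle) and 31 (HFrD, adipose).

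Leaving out each array in turn gave, for members called in liver, 7 to 10 in HFrD against chow, 10 to 16 in HFrD-NDGA against HFrD, 23 to 29 in HFrD-NDGA against chow, 6 to 8 in HFrD INS against chow INS, 7 to 12 in HFrD-NDGA INS against HFrD INS, 3 to 5 in chow INS against chow, 2 to 4 in HFrD INS against HFrD and 23 to 30 in HFrD-NDGA INS against HFrD-NDGA. In muscle, in the same order of comparisons, the ranges were 13 to 17, 10 to 17, 0 to 3, 7 to 12, 2 to 4, 12 to 17, 11 to 14 and 10 to 17. In adipose tissue they were 17 to 22, 19 to 27, 6 to 14, 6 to 10, 6 to 10, 6 to 9, 18 to 22 and 2 to 4. Without single arrays, changes ran from -0.258 to 0.049 for Psmb10 in liver HFrD against chow, from -0.052 to 0.122 for Psmb9 and from -2.118 to 0.206 for Psmb5 in liver HFrD-NDGA against HFrD, and from -0.731 to 2.05 for Psmb5 in muscle HFrD against chow.

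No paired analysis was possible because the repeat arrays carry only numbers given in accession order. In comparisons with INS the median over all entries moved most without scaling, to 0.322 in liver HFrD-NDGA INS against HFrD-NDGA, 0.305 in adipose HFrD INS against chow INS and 0.367 in adipose HFrD INS against HFrD, and for chow liver against chow muscle it was 0.274. The arrays repeat 1 pool per group, so differences between rats cannot be told apart from differences between diets.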
